A study of Homo sapiens with 8 samples.

Results

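The nuclear-encoded subunits of the oxidative phosphorylation (OXPHOS) system were examined in ribosome profiling data from HEK293T cells deprived of single essential amino acids. Members were chosen by gene symbol alone. All protein-coding genes of GENCODE release 44 named as NDUFA, NDUFB, NDUFC, NDUFS, NDUFV or NDUFAB subunits, SDHA to SDHD, the UQCR genes, CYC1, CYCS, the COX4I, COX5, COX6, COX7 and COX8 genes, and the ATP5F1, ATP5M and ATP5P genes were taken, with the highest transcript of each gene in a library standing for the gene. This gave 88 genes, of which 80 were listed in at least 1 library, out of 12235 genes listed in all. By complex, 37 of 37 complex I genes, 4 of 4 of complex II, 10 of 10 of complex III, 1 of 1 for cytochrome c, 11 of 18 of complex IV and 17 of 18 of complex V were listed. NDUFA4, which carries a complex I name but is found in complex IV, was counted with complex IV. The genes listed nowhere were ATP5MGL, COX4I2, COX6A2, COX6B2, COX7A1, COX7B, COX7B2 and COX8C. Most of these are isoforms known from muscle, lung or testis. COX7B is the widely expressed form, and between 96.7% and 97.1% of the transcript identifiers of a library were found in the annotation, so a gene may also be missing because its identifier was not matched.

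HEK293T is an established line from human embryonic kidney, immortalised with large T antigen of SV40, and all groups share this background. All cultures were kept for 12 h in a DMEM prepared without sulfur amino acids, histidine, leucine and arginine, with dialyzed serum, to which the amino acids were returned. In the sufficient medium (Suff) every one of them was restored, whereas arginine, leucine or methionine was withheld in the Arg-, Leu- and Met- media. Each medium was profiled once with cycloheximide (CHX), which arrests elongating ribosomes, given before harvest, and once without it (no CHX), so 8 libraries were available, 1 per condition. The question addressed by the comparisons is how starvation for each amino acid changed the distribution of ribosomes over mRNAs. The values are RPKM, that is reads per kilobase of coding sequence scaled to the coding reads of the library. With 1 library per condition there is no replicate error and no test. Intervals given below are exact binomial 95% intervals of the reads and cover counting error only, and RPKM values say nothing of the total amount of translation in a culture. No mRNA levels were measured here, so less mRNA and fewer ribosomes per mRNA cannot be told apart.

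OXPHOS passes electrons from NADH through complex I and from succinate through complex II to ubiquinone, on to cytochrome c through complex III and to oxygen through complex IV, while complex V, the ATP synthase, uses the proton gradient made by complexes I, III and IV. Most subunits are encoded in the nucleus, translated in the cytosol and imported, and a small core is encoded and translated within the mitochondrion. Many nuclear mRNAs of the system have short leaders. Some of them start translation at a motif called TISU, for translation initiator of short 5′ UTR, and others begin with a C and a run of pyrimidines as the terminal oligopyrimidine (TOP) mRNAs do, whose translation is known to depend on mTORC1.

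Start codon contexts are shown first because these mRNAs differ from the rest of the transcriptome there. A loose form of the TISU motif, in capitals below, was searched on the mRNA strand with its ATG fixed at the annotated start codon. Any base was allowed at its first position and just before the start codon, so a match need not be a strict TISU. This form was found in 8 of 80 members (10%), against 198 of 11679 mRNAs with an annotated coding sequence (1.70%). The contexts below run 5′ to 3′ on the mRNA strand, from GENCODE transcripts on hg38, with the motif in capitals.
NDUFS3: tctgagTAACATGGCGGCggcg
NDUFS4: ctgcagCAAGATGGCGGCggtg
NDUFA9: gtgggaAAAGATGGCGGCtgcc
SDHB: aggagcCAAGATGGCGGCggtg
UQCRC1: cagctgGAAGATGGCGGCgtcc
UQCR10: gtgaagAAACATGGCGGCcgcg
The start codons lie at chr11:47579092-47579094 (NDUFS3, plus strand), chr5:53560663-53560665 (NDUFS4, plus), chr12:4649127-4649129 (NDUFA9, plus), chr1:17054017-17054019 (SDHB, minus), chr3:48609618-48609620 (UQCRC1, minus) and chr22:29767399-29767401 (UQCR10, plus). CYC1 also held the motif. Of the 8, 4 belong to complex I, 1 to complex II and 3 to complex III, and 0 to complex IV or V. The annotated leaders of the mRNAs shown were 13 to 30 nt long.

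A C followed by 4 pyrimidines at the annotated mRNA start was found in 8 members (10%), against 4.71% of all mRNAs. These were mainly complex V mRNAs (5 of 17). The first bases of the mRNAs are shown for the members in which they matched, with the C and its 4 pyrimidines in capitals. Annotated starts need not be the starts used in these cells. The start codons of these mRNAs lie at chr12:53672612-53672614 (ATP5MC2, minus strand), chr11:118401666-118401668 (ATP5MG, plus), chr21:33915761-33915763 (ATP5PO, minus), chr19:1241851-1241853 (ATP5F1D, plus), chr20:59032249-59032251 (ATP5F1E, minus), chr16:85801206-85801208 (COX4I1, plus), chr5:86618056-86618058 (COX7C, plus) and chr3:179604816-179604818 (NDUFB5, plus) on hg38.
ATP5MC2: CCCCTctctgtcttctctgc
ATP5MG: CCTTCcggcgggtgacattc
ATP5PO: CTCTTcccactcgggtttga
ATP5F1D: CTCCCagacgtccctgcgcg
ATP5F1E: CTTCCtgcggctgaaccgcc
COX4I1: CTCTCttccggtcgcgggac
COX7C: CTTTTcagtccttgcgcacc
NDUFB5: CTTCCtcctgcccgtagtag

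The members are short mRNAs. Their median coding length was 424.5 nt against 1434 nt over all mRNAs, and 62 of 80 (77.5%) were at most 750 nt long against 19.0% of all. The median annotated leader was 54.5 nt against 153 nt. Leucine, methionine and arginine codons made up medians of 9.27%, 2.80% and 6.51% of the members' codons, and of 9.75%, 2.12% and 5.64% of the codons of all mRNAs. The mRNAs with the start codon motif were the longer ones among the members, 6 of 8 over 750 nt, whereas the 8 with pyrimidine starts were all at most 750 nt.

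Libraries differed widely in depth, which sets what can be said of each member. Coding reads recovered from the RPKM steps ranged from 1302523 to 3139745 without CHX. With CHX they were 2560280 for Suff, 5010210 for Arg-, 6434043 for Leu- and only 538222 for Met-. The lowest count of any listed mRNA was 5 reads without CHX and 64 reads with it, so a member missing from a CHX library may have had up to that many reads. Without CHX 75 members were listed in all 4 libraries and 2 in some. With CHX 43 were listed in all 4 and 28 in some, and Met- listed only 44. Of the genes known to be active in this line, 8 of 9 were listed (2 of them in all 8 libraries), against 1 of 9 markers of other cell types, COL1A1.

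Some members could not be counted equally in both series. NDUFA7, UQCR10 and UQCR11 were listed with CHX alone, and COX6B1, COX8A, ATP5PO, ATP5MF, NDUFB8, NDUFA13, NDUFC2, NDUFA11 and UQCRHL without CHX alone. Only uniquely mapped reads were kept by the authors. In the annotation used here, 16 of 80 members shared over 10% of their 30-nt coding windows with transcripts of another protein-coding gene, often a read-through transcript. For NDUFA7 and UQCR11 the share was 100%, for SDHA 88.6%, for NDUFC2 86.3%, for NDUFA9 84.8% and for NDUFB8 83.2%. It was 70.9% for UQCRHL (with UQCRH), 67.9% for ATP5MG and 63.6% for SDHD. With non-coding genes counted too, 22 of 80 members shared over 1/2 of their windows, among them NDUFV2 (91.5%), UQCRFS1 (74.4%) and COX7C (65.6%). Levels of these members depend on which transcripts the authors' reference held. For 27 members the 2 series list different transcripts, so levels are compared within a series only.

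In sufficient medium the system took 4.57% of the summed RPKM without CHX and 5.50% with it. Complex IV and complex V had the highest median footprint levels of the complexes without CHX. Without CHX the median RPKM in Suff was 1571 for complex IV and 999.7 for complex V, against 414.5 for complex I, 381.4 for complex III and 255.1 for complex II. The 5 highest members without CHX were COX7C (3737 RPKM), a small subunit of complex IV, NDUFA1 (2561), ATP5MC3 (2526), NDUFA4 (2026) and COX6A1 (1981). With CHX they were NDUFA1 (5412), ATP5ME (4621), UQCR10 (4540), ATP5MC3 (4171) and COX7C (3825). NDUFA1, COX7C and ATP5MC3 were thus among the highest in both series. The share held by the system was lower than in Suff in each starved library without CHX, at 3.23% in Arg-, 4.20% in Leu- and 3.86% in Met-. With CHX the shares were 4.02%, 4.42% and 4.54%, also below Suff. The CHX lists were unlike, as listed mRNAs held 87.6%, 92.0%, 92.7% and 64.7% of coding reads in Suff, Arg-, Leu- and Met-. The members summed there numbered 70, 71, 71 and 44, so the CHX shares, that of Met- above all, are not closely comparable. Cytosolic ribosomal protein mRNAs, which take a large part of the sum, held 20.9%, 18.2%, 12.3% and 18.1% in Suff, Arg-, Leu- and Met- without CHX.

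**Figure D1:**
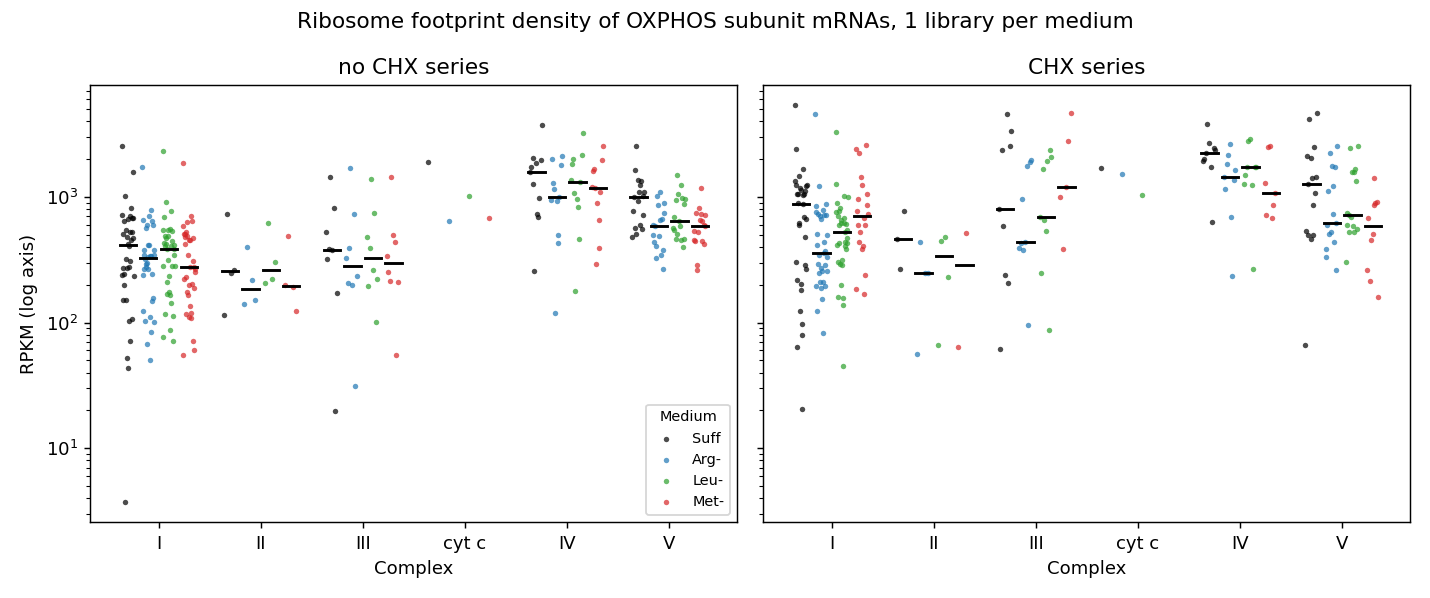
RPKM of each listed member (points, log axis) by complex in the no CHX series (left) and the CHX series (right), coloured by medium, with black bars at the median of each complex in each library. Complex IV has the highest medians in Suff (1571 RPKM without CHX), and Met- with CHX has the fewest points (44 members).

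The no CHX series, in which nearly all members were listed, is described first. In Arg- the median log2 ratio of RPKM + 1 to Suff was -0.57 over 75 members with a mean of at least 10 RPKM, while the median of all 7448 mRNAs was -0.02. Of the 75 members, 60 were below 0 (51.4% of all mRNAs were), 10 were at least 2-fold lower (5.95% of all) and 0 were at least 2-fold higher (8.23% of all). In Leu- the median was -0.20 over 76 members, with 0.14 over all mRNAs. There 55 members were below 0 (39% of all), 0 were at least 2-fold lower (2.06%) and 2 at least 2-fold higher (6.85%), NDUFS1 and UQCRHL. In Met- the median was -0.44 while that of all mRNAs was 0.32. There 59 members were below 0 (34.4% of all), 13 at least 2-fold lower (5.34%) and 1, UQCRHL, at least 2-fold higher (20.2%). Relative to the median of all mRNAs, 60, 63 and 71 members lay lower in Arg-, Leu- and Met-. In Met-, centring on that median gave 23 members at least 2-fold lower (10.7% of all mRNAs) and 1 higher (10.7%).

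The same members tended to be lower in each starvation. Of the 75 members measured in all 4 libraries, 45 (60%) were lower than Suff in each of Arg-, Leu- and Met-, against 21.9% of 7182 mRNAs, and 6 were higher in each (ATP5F1A, COX7A2, NDUFS1, SDHA, UQCRC2 and UQCRHL). The 3 comparisons share the Suff library, so a high value there lowers all of them together. The starved libraries were also set against each other directly. Members had a median of -0.27 in Met- against Leu-, where all mRNAs had 0.15, and of 0.30 in Leu- against Arg-, where all mRNAs had 0.15. In Met- against Arg- the members' median was 0.04 and that of all mRNAs 0.29. By these medians the members were highest in Suff, then in Leu-, and lowest in Arg- and Met-.

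**Figure D2:**
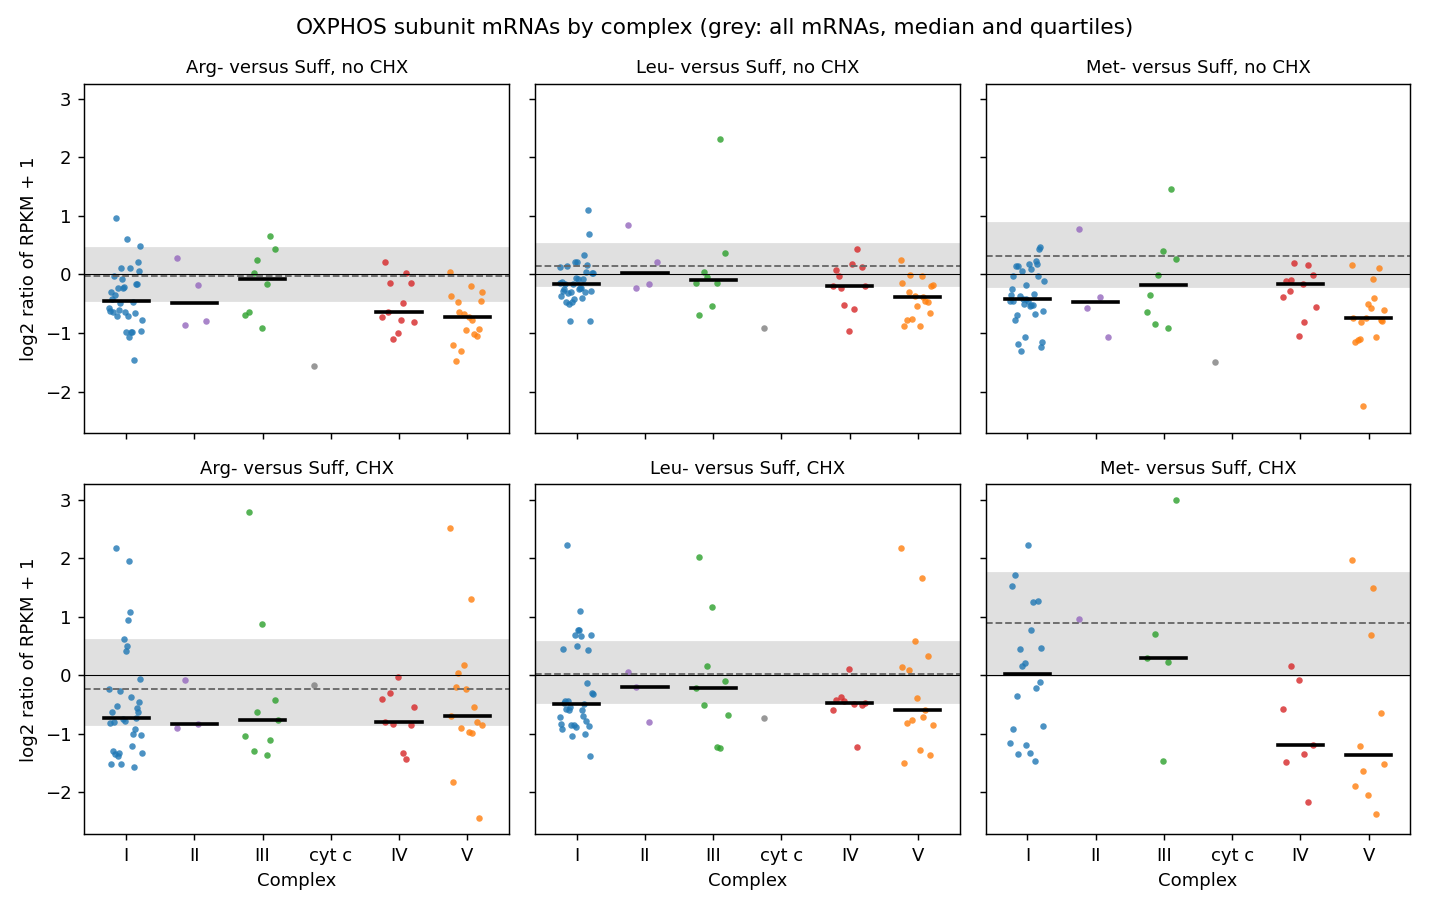
Log2 ratio of RPKM + 1 in each starvation to Suff for every measured member, by complex, without CHX (top) and with CHX (bottom); black bars are medians, the dashed line is the median of all mRNAs and the grey band their quartiles. Without CHX the complex V medians were -0.72, -0.38 and -0.75 and lay under the dashed line in each panel.

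The mobile carrier cytochrome c, encoded by CYCS, had among the lowest ratios of the system. CYCS was at 1915 RPKM in Suff, 646.2 in Arg-, 1017 in Leu- and 678.4 in Met- without CHX, so all 3 starved libraries were below Suff. It was 2.96-fold lower in Arg- (95% interval 2.64 to 3.34), 1.88-fold lower in Leu- (1.70 to 2.09) and 2.82-fold lower in Met- (2.49 to 3.21). These log2 ratios stood at percentiles 0.980, 2.86 and 1.56 of all mRNAs. With CHX it was at 1701 RPKM in Suff, 1510 in Arg- and 1029 in Leu-, 1.13-fold and 1.65-fold lower. It was not listed in Met- with CHX, where the 64-read cutoff corresponds to 377.5 RPKM. CYCS has many processed pseudogenes, and 69.2% of its 30-nt coding windows were also found in transcripts of other, non-coding genes.

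Complex V had the lowest medians of the multi-subunit complexes in each starvation without CHX, at -0.72 in Arg-, -0.38 in Leu- and -0.75 in Met-, and all 17 mRNAs lay below the median of all mRNAs in Met-. The 3 genes ATP5MC1, ATP5MC2 and ATP5MC3 encode the identical mature c subunit, which forms the rotating ring in the membrane. ATP5MC3 was at 2526 RPKM in Suff, 1025 in Arg-, 1492 in Leu- and 529.7 in Met-. ATP5MC1 was at 999.7, 435.0, 544.5 and 448.3 RPKM, and ATP5MC2 at 1349, 668.7, 984.8 and 640.4 RPKM, in the same order of media. For each of the 3 genes every starved library was below Suff. ATP5MC3 was 2.47-fold lower in Arg- (2.27 to 2.68), 1.69-fold lower in Leu- (1.58 to 1.82) and 4.77-fold lower in Met- (4.23 to 5.39), the lowest Met- ratio of any member. ATP5MC1 was 2.30-fold, 1.84-fold and 2.23-fold lower. The ends of the ATP5MC1 and ATP5MC2 coding sequences, which hold the mature subunit, were 88.9% identical and that of ATP5MC3 81.3% identical to either, and only uniquely mapped reads were counted.

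Other membrane and stalk subunits of the ATP synthase were also mostly below Suff. ATP5MG, the g subunit, was at 1624 RPKM in Suff, 585.0 in Arg-, 948.6 in Leu- and 748.1 in Met-. ATP5MF, the f subunit, was at 1087, 660.6, 589.3 and 729.0 RPKM. Over the 12 peripheral stalk and membrane mRNAs the medians were -0.75, -0.42 and -0.78, with all 12 below 0 in Arg- and Leu- and 11 in Met-. The exception in Met- was ATP5MJ, at 555.2 RPKM in Suff and 598.8 in Met-. The F1 head differed among its own parts. The catalytic head subunits ATP5F1A and ATP5F1B were nearly level, ATP5F1A at 479.7, 495.3, 568.0 and 538.2 RPKM in Suff, Arg-, Leu- and Met- and ATP5F1B at 1253, 1092, 1234 and 1184 RPKM. The small stalk subunits ATP5F1D (724.9, 380.8, 461.2 and 422.5 RPKM) and ATP5F1E (933.0, 485.5, 638.1 and 659.5 RPKM) were below Suff in every starved library. In the peripheral stalk, ATP5PB was at 767.9, 595.9, 690.6 and 456.1 RPKM and ATP5PO at 1016, 745.6, 882.4 and 582.4 RPKM, both lowest in Met-. ATP5F1C, the gamma subunit of F1, was at 564.2 RPKM in Suff and 261.0 in Met-. Over the 5 F1 mRNAs the medians were -0.47, -0.30 and -0.50.

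**Figure D3:**
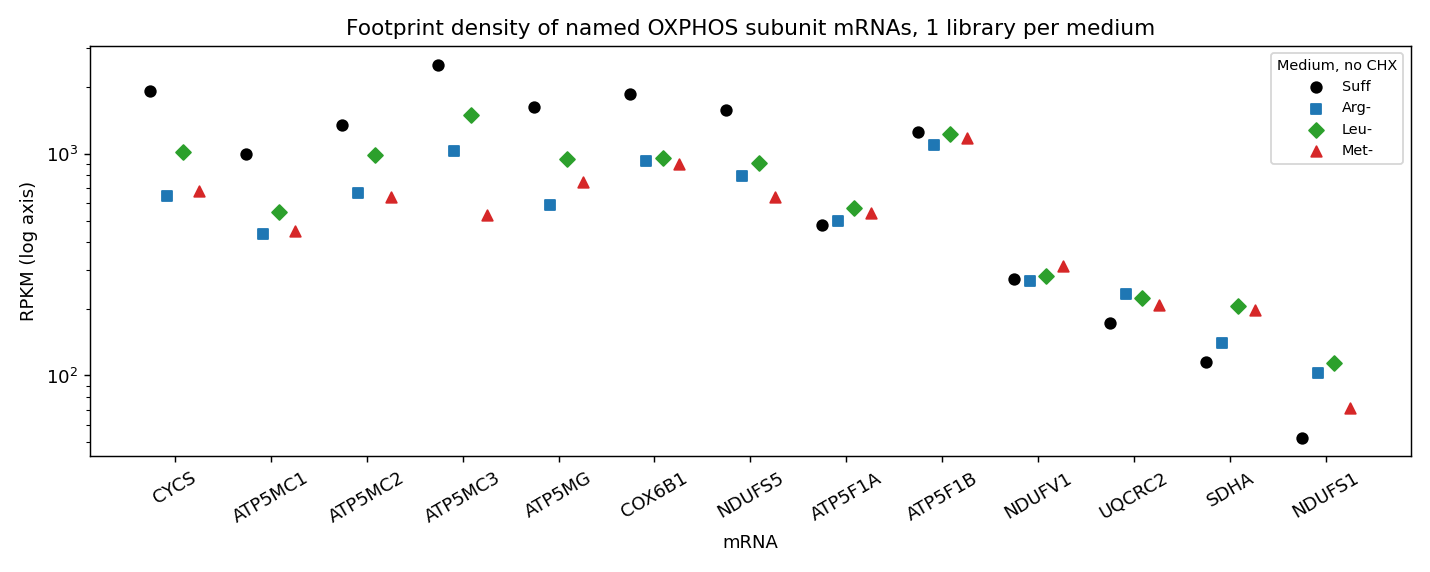
RPKM (log axis) of 13 members in the 4 no CHX libraries, 1 symbol per library. For CYCS, the ATP5MC genes, ATP5MG, COX6B1 and NDUFS5 the Suff symbol is the highest, whereas for UQCRC2, SDHA and NDUFS1 it is the lowest.

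In complex I, the medians were -0.45, -0.17 and -0.42. The NDUFS and NDUFV mRNAs, which include those for the core subunits that carry the flavin and iron-sulfur centres, had medians of -0.16, -0.07 and -0.36 over 11 mRNAs, and the NDUFA, NDUFB and NDUFC mRNAs for accessory subunits -0.57, -0.25 and -0.44. NDUFS1, the largest core subunit, was at 52.4 RPKM in Suff and at 102.6, 113.7 and 71.4 RPKM in Arg-, Leu- and Met-. It was 1.96-fold higher in Arg- (1.69 to 2.27), 2.17-fold higher in Leu- (1.88 to 2.51) and 1.36-fold higher in Met- (1.14 to 1.62), and it was the highest complex I member in Arg- and Leu-. NDUFV1, which binds NADH and flavin, was close to level at 273.7, 267.5, 281.6 and 310.9 RPKM. NDUFS8, an iron-sulfur subunit, was at 457.9, 700.3, 407.4 and 508.2 RPKM, above Suff in Arg- and Met- and below it in Leu-. NDUFS3, a core subunit with the start codon motif, was at 308.5, 266.3, 280.7 and 224.0 RPKM, lowest in Met-. The iron-sulfur subunits NDUFS7 (245.0, 342.3, 233.0 and 278.6 RPKM) and NDUFV2 (237.1, 149.7, 212.1 and 166.9 RPKM) differed in Arg-, the first above Suff and the other below it.

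Accessory complex I mRNAs included the lowest of the complex. NDUFS5, an accessory subunit of the intermembrane space side in spite of its name, was at 1576 RPKM in Suff, 793.0 in Arg-, 905.3 in Leu- and 636.2 in Met-. It was 2.48-fold lower in Met- (2.17 to 2.83), among the 3 lowest members there. NDUFB8 was at 233.3, 84.1, 167.9 and 173.8 RPKM, 2.77-fold lower in Arg- (2.17 to 3.59). NDUFS6 was at 419.8, 276.3, 346.3 and 187.9 RPKM. NDUFAB1, the mitochondrial acyl carrier protein, which also serves fatty acid synthesis, was at 680.9, 417.9, 490.8 and 418.9 RPKM. NDUFA13 reached the highest complex I ratio in Met- (0.48), from 43.6 RPKM in Suff to 61.0, but it was not listed in Arg- although the 5-read cutoff there was 6.85 RPKM. NDUFA13 shared 69.1% of its coding windows with a read-through gene.

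Complex II also acts in the citric acid cycle and has no mitochondrially encoded subunit. Its flavoprotein mRNA SDHA was higher than Suff in each starved library, at 115.1 RPKM in Suff, 139.7 in Arg-, 206.6 in Leu- and 198.2 in Met- (1.72-fold higher in Met-, 1.53 to 1.93). The other 3 mRNAs did not follow it. SDHB was at 247.5, 218.0, 221.9 and 190.3 RPKM, and the membrane anchor SDHC at 731.9, 400.5, 626.2 and 492.3 RPKM. SDHD, the second anchor, was at 262.8, 151.3, 306.2 and 124.8 RPKM, 2.11-fold lower in Met- (1.65 to 2.72).

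Complex III had medians of -0.07, -0.09 and -0.17 over 8 mRNAs, in Arg- the nearest to 0 of the complexes. The core subunit UQCRC2 was at 173.0, 232.9, 223.2 and 208.6 RPKM, above Suff in each starvation, and UQCRC1 at 384.5, 391.1, 393.5 and 213.9 RPKM, below Suff in Met- only. The Rieske iron-sulfur protein UQCRFS1 went both ways, at 378.3, 199.4, 260.7 and 499.7 RPKM. UQCRB, which lies near the ubiquinone site, was at 819.8, 730.7, 740.9 and 436.0 RPKM. CYC1, the cytochrome c1 subunit, was at 530.2, 327.6, 481.6 and 341.5 RPKM. UQCRHL, a retrocopy of UQCRH, had the highest ratio of the measured members in Leu- and Met- and the next to highest, after NDUFS1, in Arg-, at 19.6, 31.5, 101.7 and 55.6 RPKM. It rests on few reads, with an interval of 2.89 to 9.71 for its 5.18-fold higher level in Leu-, and UQCRH itself was at 318.5, 204.9, 196.7 and 250.9 RPKM, below Suff in each starvation.

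Complex IV, the terminal oxidase, had medians of -0.65, -0.20 and -0.17. COX6B1, the subunit facing cytochrome c, was at 1865 RPKM in Suff, 927.7 in Arg-, 954.8 in Leu- and 903.1 in Met-, the lowest Leu- ratio of the system. COX4I1, a regulatory subunit, was at 1571, 947.1, 1365 and 1198 RPKM. COX7C was at 3737, 2134, 3243 and 2535 RPKM, and COX5A at 694.9, 497.2, 462.7 and 395.5 RPKM. COX5B (1268, 1148, 1077 and 1183 RPKM), COX6A1 (1981, 1797, 2162 and 1966 RPKM) and COX6C (1722, 1999, 1825 and 1603 RPKM) stayed within narrow ranges. COX7A2, at 973.8, 990.1, 1319 and 1090 RPKM, was above Suff in each starvation. NDUFA4 was at 2026, 1295, 1991 and 1663 RPKM. COX7A2L, which joins complexes III and IV, was at 256.6, 118.8, 178.2 and 293.7 RPKM. COX8A was lower in Arg- and not in Leu-, at 737.1, 431.6, 833.5 and 654.4 RPKM.

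The coding length of an mRNA went along with these ratios throughout the transcriptome. Over all mRNAs without CHX, Spearman's rho between coding length and log2 ratio was 0.36 in Arg- (7201 mRNAs), 0.31 in Leu- (7307) and 0.44 in Met- (7627). Over the members it was 0.35, 0.28 and 0.10. These are descriptions across genes of the same pair of libraries, and genes are not independent replicates. Among mRNAs of at most 750 nt, the 57 to 58 members had medians of -0.64, -0.24 and -0.48, while all such mRNAs had -0.31, -0.08 and -0.17. Among mRNAs over 750 nt the 18 members had -0.17, -0.08 and -0.37, against 0.08, 0.22 and 0.47 for all. Without CHX, in both length classes and all 3 starvations, the members' median was the lower one. The part played by length in the members' values was not tested further.

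**Figure D4:**
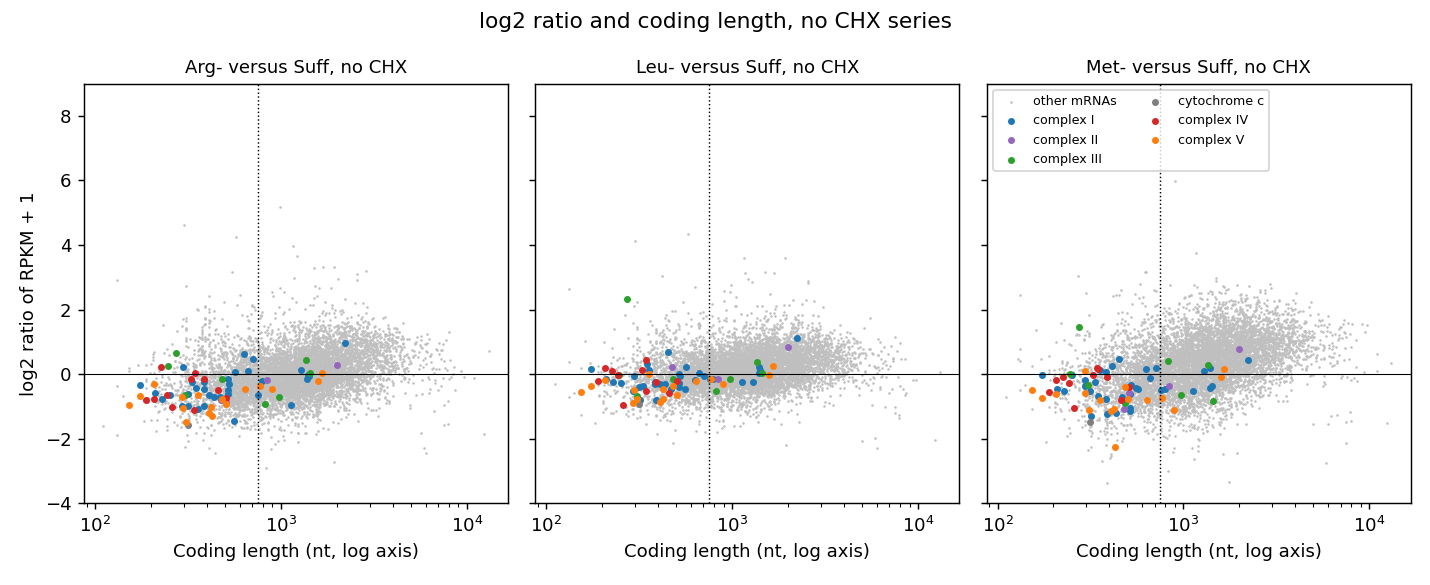
Log2 ratio of RPKM + 1 to Suff (no CHX) against coding length (log axis) for all mRNAs (grey) and members (coloured by complex); the dotted line marks 750 nt. Most members lie left of the line, and those of at most 750 nt had medians of -0.64, -0.24 and -0.48 in Arg-, Leu- and Met-.

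Members with the start codon motif shown above, 7 of which were measured without CHX, had medians of -0.21, -0.14 and -0.46, within ranges of -0.97 to 0.02, -0.25 to 0.21 and -0.84 to -0.34. Members without it had -0.61, -0.22 and -0.42. In Met-, all mRNAs with the motif had a median of 0.06 and those without it 0.32. Also without CHX, the 8 members that begin with a C and 4 pyrimidines had medians of -0.87, -0.33 and -0.67. The members without such a start had -0.48, -0.16 and -0.39. Among all mRNAs the corresponding medians were -0.07, 0.04 and 0.14 with the pyrimidine start and -0.02, 0.15 and 0.33 without. ATP5MG, with a pyrimidine start, was the lowest of these members in Arg- (-1.47). NDUFB5 was the only one of the 8 above 0 in Arg- and Leu- (0.06 and 0.21). With CHX, members with the start codon motif (8, 8 and 4) had medians of 0.03, 0.55 and 0.98. Members without that motif had -0.75, -0.50 and -0.57, and all mRNAs with it 0.05, 0.19 and 1.11. Members with the pyrimidine start (7, 7 and 5) had -0.54, -0.59 and -1.64 with CHX, and the other members -0.74, -0.47 and 0.03.

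Genes of the same pathway that are not subunits were read beside the members, from lists of assembly factors, regulators, cristae proteins and ribosomal proteins. The assembly factors, 49 or 50 of 51 measured, had medians of -0.26, -0.07 and 0.12 without CHX, with 5, 4 and 4 at least 2-fold lower (5.95%, 2.06% and 5.34% of all mRNAs) and 4, 1 and 3 at least 2-fold higher (8.23%, 6.85% and 20.2% of all mRNAs). PET100, a complex IV assembly factor, was at 711.6, 316.0, 442.4 and 321.6 RPKM in Suff, Arg-, Leu- and Met-. Transcriptional regulators of the system, 10 of 12 measured, had medians of 0.08, 0.07 and 0.54. Among them GABPA, a subunit of the GA-binding protein, was at 40.6, 53.7, 65.1 and 123.2 RPKM. The 10 supercomplex and cristae genes had medians of -0.10, -0.09 and -0.13. Mitochondrial ribosomal protein mRNAs (73 genes) had -0.31, -0.34 and -0.11, and cytosolic ribosomal protein mRNAs (82 genes) -0.24, -0.91 and -0.53. The members' median was below those of both ribosomal protein lists in Arg-, above both in Leu-, and between them in Met-.

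Of the 13 mitochondrially encoded mRNAs, which are read by mitochondrial ribosomes, 7 were listed. Without CHX their median log2 ratio was 0.79 in Arg- and 0.96 in Leu-, opposite in sign to the nuclear members, and -0.70 in Met-. MT-CO2 was at 190.4 RPKM in Suff, 397.6 in Arg-, 388.7 in Leu- and 212.1 in Met-. MT-CO1 was at 527.7, 855.6, 902.9 and 1378 RPKM, and MT-ND6 at 200.8, 119.4, 283.8 and 67.3 RPKM. With CHX the median was -0.27 in Arg- and -0.94 in Leu-, below 0. MT-CO2 was then at 757.6, 631.0 and 403.3 RPKM in Suff, Arg- and Leu- and not listed in Met-. The direction for the mitochondrially encoded mRNAs in Arg- and Leu- therefore depended on the series.

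In the CHX series the members' medians were also below 0 in each comparison, with a much wider spread. In Arg- the median was -0.74 over 70 members against -0.23 over all mRNAs, with 19 members at least 2-fold lower (19.7% of all mRNAs) and 6 at least 2-fold higher (16.6%). In Leu- it was -0.48 over 70 members against 0.02, with 9 at least 2-fold lower (7.28%) and 6 higher (12.1%). In Met- it was -0.23 over 43 members against 0.89, with 16 at least 2-fold lower (9.79%) and 8 higher (46.7%). The 64-read cutoff selects among all mRNAs too, as Met- listed 2021 genes and Suff 5466. An mRNA at a low level in Suff entered this pair only if it was high enough in the shallow Met- library. The values for all mRNAs in Met-, centred or not, therefore depend in part on the cutoff. Centred on the median of all mRNAs, the Met- median was -1.12, with 22 members at least 2-fold lower (23% of all mRNAs) and 3 higher (20.8%). By complex, the medians in Arg- and Leu- were -0.73 and -0.49 for complex I, -0.76 and -0.22 for complex III, -0.80 and -0.47 for complex IV, and -0.70 and -0.59 for complex V. In Met- complexes IV (-1.19 over 7 mRNAs) and V (-1.36 over 10) were lowest, and complex I was near 0 (0.02 over 20).

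The wide spread with CHX went with length within the system. Members over 750 nt had medians of 0.50 in Arg-, 0.68 in Leu- and 0.77 in Met- over 17, 17 and 11 mRNAs, and those of at most 750 nt -0.80, -0.59 and -0.76 over 53, 53 and 32 mRNAs. All mRNAs over 750 nt had medians of 0.04, 0.21 and 1.25, and those of at most 750 nt -0.73, -0.38 and -0.13. With CHX the members' median was thus the higher one over 750 nt in Arg- and Leu-, and the lower one elsewhere. All 6 members at least 2-fold higher in Arg- and all 6 in Leu- were over 750 nt. In Met- 5 of the 8 were, and the other 3 were at most 750 nt, with UQCRH (2.99) and NDUFS8 (2.23) the highest of all on the log2 scale. UQCRC2 was at 61.2 RPKM in Suff with CHX, 428.0 in Arg- and 250.3 in Leu-. ATP5F1A was at 66.4, 384.0, 301.5 and 262.1 RPKM in Suff, Arg-, Leu- and Met-. With CHX ATP5F1A was lowest in Suff, and UQCRC2 was lowest there among the libraries that listed it. UQCRC2 was not listed in Met-, where the 64-read cutoff corresponds to 87.5 RPKM. Without CHX both mRNAs were lowest in Suff, by smaller ratios. With CHX, rho between coding length and log2 ratio was 0.33, 0.44 and 0.46 over the 70, 70 and 43 members in Arg-, Leu- and Met-, and 0.48, 0.42 and 0.55 over all mRNAs. At the low end were ATP5F1D (1435, 263.0, 555.4 and 917.9 RPKM), ATP5MC1 (2101, 595.8, 745.1 and 505.5 RPKM) and, in Arg-, NDUFB7 (1064 RPKM in Suff and 356.9 in Arg-) and, in Leu-, NDUFB4 (1213 RPKM in Suff and 467.6 in Leu-).

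The Met- library with CHX is the shallowest, and many members were missing from it. Of the members listed in Suff with CHX, 27 were not listed in Met-. For 21 of these the RPKM that 64 reads would give in Met- was below the Suff level, and for 17 at most 1/2 of it. ATP5MC3 was at 4171 RPKM in Suff with a cutoff of 279.1 RPKM in Met-, UQCR10 at 4540 with 629.2, UQCRB at 2565 with 357.1, NDUFS5 at 2404 with 373.9, and NDUFA4 at 2384 with 489.3. These mRNAs were therefore lower in Met- than in Suff by at least the ratio of the 2 values, if the transcript was counted alike in both libraries. The members that remained listed had to exceed the cutoff, so the medians for Met- with CHX describe the better covered ones. Among these, ATP5ME was at 4621 RPKM in Suff and 888.6 in Met-, and COX7C at 3825 and 855.3. NDUFS8 was higher, at 266.4 RPKM in Suff and 1253 in Met-. These values rest on 88 and 87 reads, near the 64-read cutoff, and on another transcript than without CHX. UQCRH was also higher, at 585.9 RPKM in Suff, 379.6 in Arg-, 655.7 in Leu- and 4651 in Met-.

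Arg- and Leu- shared direction between the series for most members. Of 67 members measured in both series, 47 (70.1%) were lower than Suff in both in Arg- and 39 (58.2%) in Leu-, where all mRNAs gave 45.2% and 33.4%. In Met- 21 of 41 (51.2%) were lower in both, against 20.9% of all mRNAs. Opposite directions were found for 14, 19 and 14 members in Arg-, Leu- and Met-. The share of all mRNAs with opposite directions is not given here, so these counts have no background to be read against. The series differ in drug treatment, read cutoff and depth, and for some members in the transcript listed. The names of the no CHX records also point to a removal of duplicate reads. These differences cannot be told apart. ATP5MC1 was lower in every one of the 6 comparisons, 1.84-fold to 4.16-fold, and COX4I1, a complex IV subunit listed in all 8 libraries, was 1.15-fold to 1.66-fold lower.

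**Figure D5:**
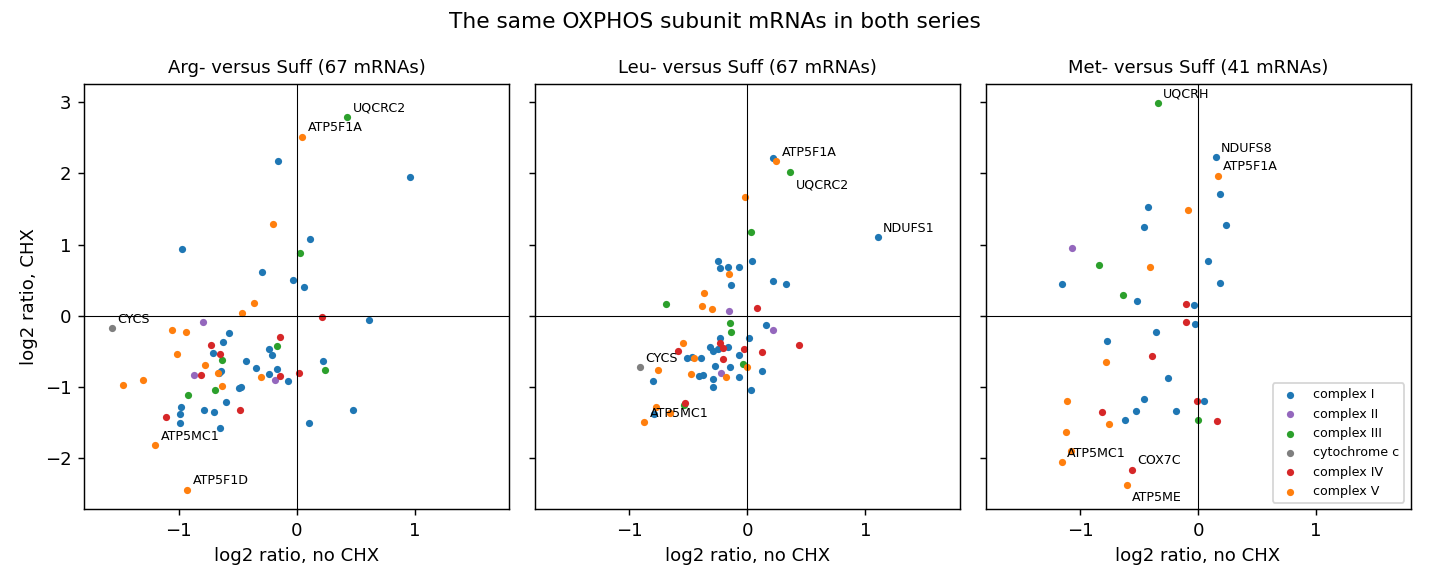
Log2 ratio of RPKM + 1 to Suff with CHX (vertical axis) against that without CHX (horizontal axis) for members measured in both series, coloured by complex. The lower left quadrant holds 47 of 67 members in Arg-, 39 of 67 in Leu- and 21 of 41 in Met-.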

How the data were processed

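Ribosome footprints were profiled in 8 libraries, 1 per medium and drug condition. Per the study's methods, reads of 25 to 35 nt were quality trimmed with Trimmomatic and aligned to the GRCh38 transcriptome with Bowtie, keeping uniquely mapped reads. The submitters' processing notes also name cutadapt, and no versions were given. The authors deposited RPKM values per Ensembl transcript. The names of the no CHX records point to a removal of duplicate reads.

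Transcripts were named through GENCODE release 44. Whole reads were recovered by multiplying RPKM by coding length (tolerance 0.01), and the precision of a value follows from its reads. Ratios were taken as log2 of RPKM with a pseudocount of 1, for genes listed in both libraries with a mean of at least 10 RPKM, and intervals are exact Clopper-Pearson at 95%. No test across samples was possible with 1 library per condition, and no set test across genes was used. Named were set representatives of each complex, the 3 lowest and 3 highest members of each comparison and the 5 highest in each Suff library; ATP5MJ, PET100, GABPA and the mitochondrial examples were chosen after their values were seen. Values of 1 member are not reported here. Members and lists were chosen with earlier results of these data known. Alternatives covered the pseudocount, filters, unlisted mRNAs, transcript choice, scaling, depth, membership and fold threshold. Columns of unknown samples numbered 0. Calculations used Python 3.11.15, pandas 2.3.3 and SciPy 1.17.1, and were tested on simulated data.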

Additional observations from a re-analysis of the deposited data

Results flagged for a closer look

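A few members differed in direction between the series with and without CHX by more than counting error, with at least a 2-fold ratio in 1 of the series. The difference was not tested, since each condition has 1 library. This held for 3 members in Arg-, of which 2 are given, and for 6 in Met-, of which 5 are given. In Arg-, the log2 ratio to Suff with CHX and without CHX was 1.29 and -0.20 for ATP5F1B and -1.32 and 0.48 for NDUFS7. In Met-, it was 1.49 and -0.08 for ATP5F1B, -1.48 and 0.16 for COX7A2, 0.45 and -1.16 for NDUFS6, 0.95 and -1.07 for SDHD, and 2.99 and -0.34 for UQCRH. For NDUFS7 and NDUFS6 the transcript listed differed between the series. In Leu- 7 members differed in direction beyond counting error, and 0 of them reached 2-fold in either series. How often other mRNAs differed in this way is not given here, so the counts are not particular to the members.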

How the results depend on the processing

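The median log2 ratio of the members stayed below 0 under every alternative run. Of 54 values, 50 stayed in the order-statistic interval of the reported median across members. This interval describes the spread across genes, which are not independent replicates. For Met- with CHX it ran from -1.19 to 0.30, wide enough to hold the centred value of -1.12 (from -0.23). Alternatives such as another pseudocount or RPKM filter kept nearly the same members and could change little. Centred on the median of all mRNAs, the members' median was -0.50 in Arg- with CHX (from -0.74). Centred without CHX, it was -0.34 in Leu- (from -0.20) and -0.75 in Met- (from -0.44). With unlisted mRNAs taken as RPKM 0, it was -1.47 in Met- with CHX (from -0.23), and the count at least 2-fold lower was 43 (from 16). Of 120 counts past a fold, 103 stayed within 1.5-fold of the reported count. Centring gave 3 higher members in Met- with CHX (from 8) and 23 lower in Met- without CHX (from 13). A 1.5-fold threshold gave 37, 11 and 27 lower members in Arg-, Leu- and Met- without CHX (from 10, 0 and 13), and 40 and 29 in Arg- and Leu- with CHX (from 19 and 9). Shares over all mRNAs are not given for this threshold or with unlisted mRNAs as RPKM 0. Those counts show only how the number of members moved with the setting. Depth limits Met- with CHX most, where a member under 64 reads was not listed. No paired analysis was possible because each condition has 1 library and the labels carry no replicate numbers.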
